A study of Mus musculus with 8 samples.

Results

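The Toll-like receptor genes and their cofactors were followed in myeloid cells sorted from mouse bone marrow on Cd11b, the integrin alpha M subunit that granulocytes and monocytes carry. The members are 10 genes: the cell-surface receptors Tlr1, Tlr2, Tlr4 and Tlr6, the endosomal receptors Tlr7, Tlr9 and Tlr13, the lipopolysaccharide cofactors Cd14 and Ly96, and the adaptor Myd88. They were chosen by name, with earlier results of these data known. Every probe set annotated to one of them alone was taken, which gave 15 probe sets of 45037 tested and 10 genes of 18193. The 4 control samples had the genotype E2F1-/-2+/+3f/f and the 4 experimental samples the genotype Mxcre;E2F1-/-2-/-3f/f, so all mice lacked E2f1 and carried floxed E2f3, and only the experimental mice lacked E2f2 and had the Cre recombinase. All were of a mixed FVB and C57BL6 background, were 8 weeks old and had been given 5 injections of 250 µg of the double-stranded RNA pIpC, the last one 24 h before death. The Mx promoter responds to interferon and is active in many cell types, so deletion of E2f3 is not limited to myeloid cells, and effects of Cre and of the E2f genotype cannot be told apart. The labels do not state that each sample came from a separate animal, and p-values therefore cover the spread among these 8 samples, part of which may be technical.

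Toll-like receptors recognise conserved parts of microbes. Those at the surface bind bacterial lipids and proteins: Tlr2 pairs with Tlr1 or Tlr6 to sense lipoproteins, while Tlr4 senses lipopolysaccharide through Ly96 (MD-2), to which Cd14 hands the ligand. Tlr7, Tlr9 and Tlr13 sit in endosomes, where they read single-stranded RNA, unmethylated CpG DNA and bacterial ribosomal RNA. All of the receptors among the members signal through Myd88 to kinases of the Irak and IKK families, and neutrophils and monocytes of the marrow use them to detect infection. The pIpC that all mice received is a ligand of a different receptor, Tlr3.

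In these data Tlr1 was the one member whose level differed between the groups past the threshold. Its signal was 2.46-fold higher in the experimental samples. The 3 other surface receptors, both cofactors, the 3 endosomal receptors and Myd88 did not pass, and their differences ran from -0.39 to 0.20 on the log2 scale at the brightest probe set of each gene. In bulk samples such as these, fewer cells of a type and less RNA per cell cannot be told apart.

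Tlr1 and Tlr6 encode the alternative partners of Tlr2 and are neighbours on chromosome 5, on the same strand, with no gene annotated between them. The sequences upstream of their annotated starts are shown because the neighbours differed in result. Of the 10 members, 6 (Tlr1, Tlr2, Tlr6, Tlr9, Tlr13 and Myd88) had a start in the RefSeq promoter table used here (GRCm38.p6), with 8 starts in all. Each line gives the 250 bases before 1 start, 5′ to 3′ on the gene's own strand, with capitals for matches to the motifs searched.
Tlr1, chr5:64933559-64933808, minus strand: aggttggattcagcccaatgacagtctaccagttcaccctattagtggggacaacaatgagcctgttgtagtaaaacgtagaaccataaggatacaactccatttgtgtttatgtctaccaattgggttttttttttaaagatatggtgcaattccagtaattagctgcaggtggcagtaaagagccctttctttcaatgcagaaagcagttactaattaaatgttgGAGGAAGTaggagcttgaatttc
Tlr1, chr5:64932700-64932949, minus strand: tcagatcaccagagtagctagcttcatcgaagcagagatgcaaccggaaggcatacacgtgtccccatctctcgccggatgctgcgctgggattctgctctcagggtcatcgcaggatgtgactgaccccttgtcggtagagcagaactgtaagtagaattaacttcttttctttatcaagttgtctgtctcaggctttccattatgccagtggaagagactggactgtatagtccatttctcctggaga
Tlr6, chr5:64960049-64960298, minus strand: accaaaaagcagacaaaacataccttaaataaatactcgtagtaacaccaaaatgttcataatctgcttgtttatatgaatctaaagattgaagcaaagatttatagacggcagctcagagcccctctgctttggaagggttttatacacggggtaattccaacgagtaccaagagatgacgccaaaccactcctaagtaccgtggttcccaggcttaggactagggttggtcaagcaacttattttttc
Tlr6, chr5:64959167-64959416, minus strand: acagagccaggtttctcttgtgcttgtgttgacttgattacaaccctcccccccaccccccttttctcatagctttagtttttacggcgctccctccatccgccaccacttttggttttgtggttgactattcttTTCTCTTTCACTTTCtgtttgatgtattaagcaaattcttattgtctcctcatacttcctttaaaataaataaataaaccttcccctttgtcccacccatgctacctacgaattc

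4 kinds of motif were searched on both strands in these 250 bases. For E2F the letters were TTTCCCGC, TTTCGCGC, TTTGCCGC and TTTGGCGC, which 1.86% of all 32851 windows of the table hold, and none of the 8 windows of the members did. GAGGAAGT, a form of the site of the myeloid factor PU.1 (2.44% of all windows), was found in 1 window, that of the first Tlr1 line, beginning at position -23 relative to the start. GAAANNGAA, a stretch of the interferon-response element (7.13% of all windows), was found in the second Tlr6 line, where 2 matches overlap, and in the Myd88 window. TGANTCA, the AP-1 site (6.75% of all windows), was found in the Tlr9 window and in none of the windows printed here. A match is a run of letters and not a bound site, and a window without one says nothing about the factor.

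Values are log2 RMA values of single probe sets, and a difference is the experimental mean minus the control mean from a limma fit over all probe sets. Adjusted p-values are Benjamini-Hochberg values over all of them, with 0.05 as the threshold. Array medians lay between 5.01 and 5.04. The arrays correlated with one another at r = 0.982 to 0.994 across probe sets, and no pair held identical values. E2f2, the gene deleted in the experimental mice, read 7.76 to 8.19 in controls and 7.06 to 7.47 in experimental samples at 1455790_at, with no overlap (adjusted p = 0.0351). It was the only one of the 7 probe sets of E2f1, E2f2 and E2f3 that passed; the other E2f2 probe set, 1436434_at, did not overlap either (adjusted p = 0.107). At the brighter of the 2 E2f3 probe sets, 1434564_at, the value was higher in experimental samples (7.69 to 8.07) than in controls (7.43 to 7.67), with no overlap and without passing (0.29 ± 0.11 SE, adjusted p = 0.201). Whether the probe sets of E2f2 and E2f3 lie in the deleted parts was not analysed here. The sort marker Itgam (mean 11.56) was bright in both groups, as were Itgb2 (13.01) and the neutrophil markers S100a9 (14.46) and Camp (14.39).

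The members were chosen with earlier results of these data known, so the shares given here are a description and not a test. Of the 10 members, 1 was called higher and none lower, 10% of them, where 3.47% of all genes were called in either direction, 1.53% higher and 1.95% lower. Of their 15 probe sets 1 was called higher and none lower, where 2.58% of all probe sets were called, 1.03% higher and 1.55% lower. At an unadjusted p under 0.05, 4 of the 10 passed, against 18.9% of all genes. The groups did not overlap at the brightest probe set of 2 members, Tlr1 and Tlr13, beside 12.4% of all genes, and at 3 of the 15 probe sets, beside 10.8% of all. The median difference over the 10 was -0.09, beside 0.01 over all genes, and 6 of the 10 differences were below 0.

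**Figure D1:**
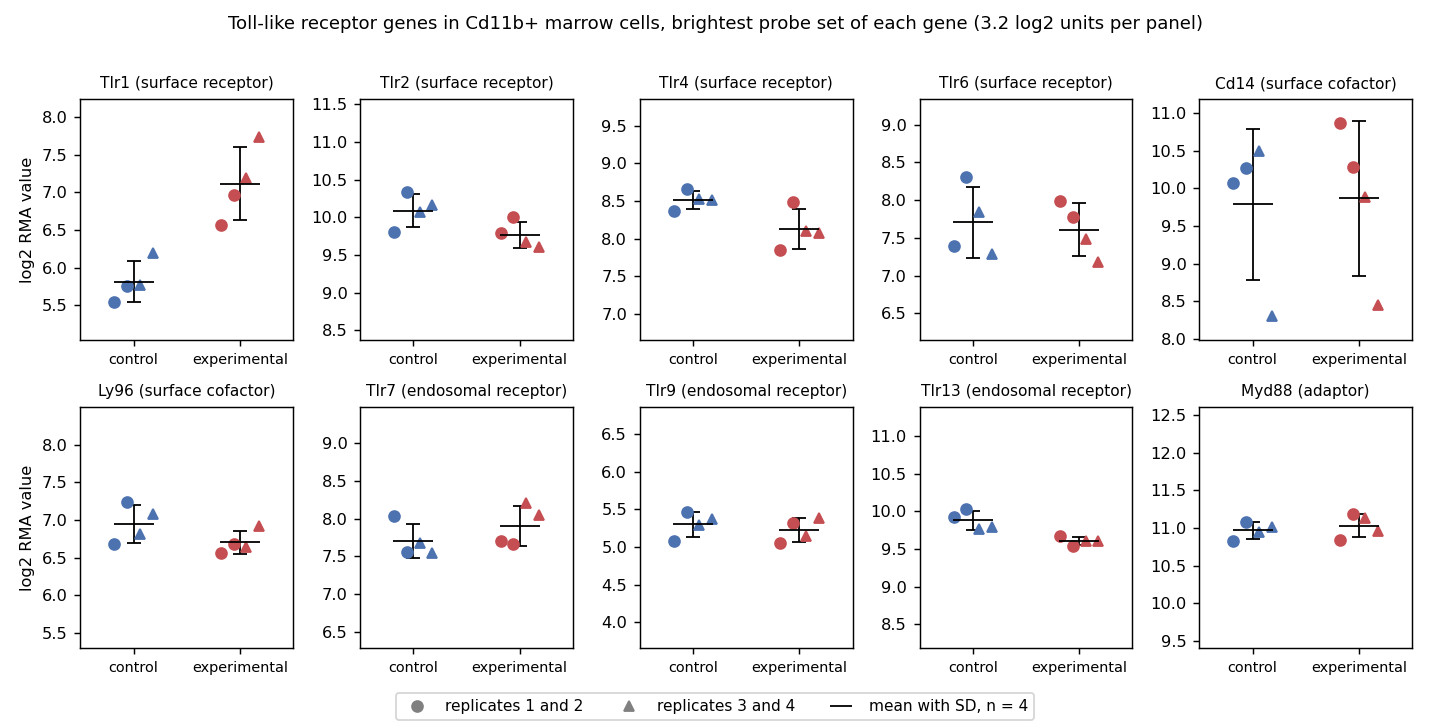
Log2 RMA value (vertical axis) of the brightest probe set of each of the 10 genes in control and experimental arrays, with circles for replicates 1 and 2, triangles for replicates 3 and 4, and bars for the mean and SD of 4 arrays. Each panel spans 3.2 log2 units. Tlr1 is separated between the groups, Tlr13 is separated by a small gap, and Cd14 is low in replicate 4 of both groups.

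Tlr1, which forms with Tlr2 the receptor for triacylated lipoproteins, has 1 probe set, 1449049_at. It read 5.55, 5.76, 5.76 and 6.19 in control replicates 1 to 4 and 6.57, 6.97, 7.19 and 7.73 in experimental replicates 1 to 4. Every experimental array lay above every control, and all 8 lay above their array's median. The means were 5.82 ± 0.27 and 7.11 ± 0.48 (SD, n = 4 each), a difference of 1.30 ± 0.23 (SE, 95% interval 0.78 to 1.81, adjusted p = 0.0220). Of the 278 genes called higher, 31 had a larger difference. Taken apart by replicate, replicates 1 and 2 gave 1.12 and replicates 3 and 4 gave 1.48. The call did not hold without control replicate 1 (adjusted p = 0.0710), control replicate 2 (0.0726) or control replicate 3 (0.0573), nor within replicates 1 and 2 alone (0.0737). It ranged from 0.00288 to 0.0737 over the alternatives, and the lowest value came with replicate number as a block.

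Tlr2, the shared partner of Tlr1 and Tlr6, did not pass. At 1419132_at it read 9.80, 10.33, 10.07 and 10.16 in controls and 9.80, 10.0004, 9.67 and 9.61 in experimental samples. Experimental replicates 3 and 4 were below all controls, while replicates 1 and 2 lay within their range or level with the lowest of them. The difference was -0.32 ± 0.13 (SE, 95% interval -0.62 to -0.02, adjusted p = 0.257), or 80.1% of the control level.

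Tlr6, the partner of Tlr2 for diacylated lipoproteins, read 7.40, 8.31, 7.84 and 7.28 in controls and 7.99, 7.78, 7.49 and 7.17 in experimental samples. The groups overlapped almost fully. Its difference was -0.10 ± 0.24 (SE, 95% interval -0.64 to 0.44, adjusted p = 0.881), so the interval lies below that of its neighbour Tlr1 (0.78 to 1.81). The difference between the 2 genes was itself not tested.

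Tlr4 was measured by 4 probe sets. At the brightest, 1418163_at, it read 8.37, 8.66, 8.52 and 8.51 in controls and 7.84, 8.48, 8.10 and 8.07 in experimental samples. The 3 experimental replicates other than replicate 2 lay below all controls. The difference was -0.39 ± 0.14 (SE, 95% interval -0.70 to -0.09, adjusted p = 0.176), or 76.2% of the control level. Probe sets 1418162_at (-0.41 ± 0.17, adjusted p = 0.244) and 1442827_at (-0.42 ± 0.16, adjusted p = 0.220) gave like values. The fourth, 1430695_at, was below the array median on all 8 arrays and had a difference of 0.02. Without experimental replicate 2, Tlr4 passed as lower at 1418163_at (-0.51, adjusted p = 0.0419), which was the smallest of its alternatives, whose largest was 0.510. The same held at 1418162_at (-0.58, adjusted p = 0.0362, with 0.680 as the largest).

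Cd14, the surface protein that passes lipopolysaccharide on to Ly96 and Tlr4, varied more than any other member. It read 10.07, 10.28, 10.49 and 8.31 in controls and 10.86, 10.28, 9.88 and 8.45 in experimental samples. Replicate 4 was lowest in both groups, by over 1 log2 unit, and the other 6 arrays overlapped. The difference was 0.08 ± 0.57 (SE, 95% interval -1.19 to 1.35, adjusted p = 0.963), an interval that holds changes of 2-fold in either direction. With replicate number as a block the SE was 0.20 and the call did not change (adjusted p = 0.866).

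Ly96, the soluble protein that completes the Tlr4 receptor, read 6.68, 7.24, 6.81 and 7.08 in controls and 6.56, 6.69, 6.65 and 6.92 in experimental samples. The groups overlapped. Its difference was -0.25 ± 0.14 (SE, 95% interval -0.56 to 0.06, adjusted p = 0.398), on the same side of 0 as that of Tlr4.

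**Figure D2:**
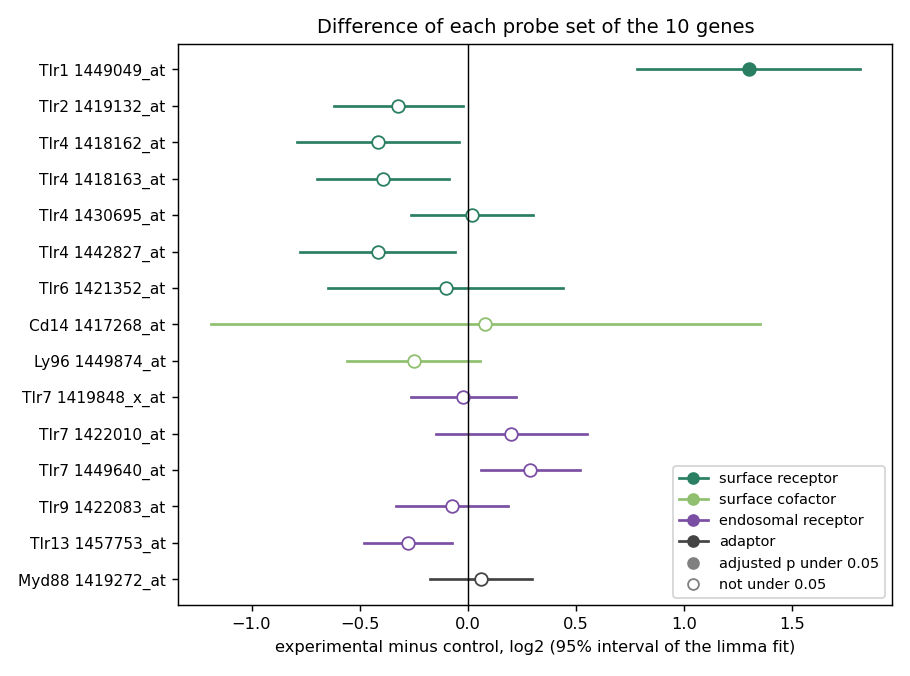
Experimental minus control difference on the log2 scale (horizontal axis) of all 15 probe sets, with the 95% interval of the limma fit, coloured by class. The filled point is the probe set past the threshold, Tlr1 at 1.30, and 3 of the 4 Tlr4 probe sets lie near -0.4.

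Among the endosomal receptors, Tlr13, which recognises a conserved stretch of bacterial ribosomal RNA, had groups that did not overlap but did not pass. It read 9.93, 10.02, 9.77 and 9.79 in controls and 9.67, 9.54, 9.61 and 9.60 in experimental samples. All 4 experimental arrays lay below all 4 controls, by a gap smaller than the spread of the controls. The difference was -0.27 ± 0.09 (SE, 95% interval -0.48 to -0.07, adjusted p = 0.156), or 82.7% of the control level.

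Tlr7, the receptor for single-stranded RNA, had 3 probe sets that differed in result. At the brightest, 1422010_at, it read 8.03, 7.56, 7.68 and 7.55 in controls and 7.71, 7.66, 8.21 and 8.05 in experimental samples. Experimental replicates 3 and 4 were higher than every control and replicates 1 and 2 lay within the control range. The difference was 0.20 ± 0.16 (SE, adjusted p = 0.563). At 1449640_at the groups did not overlap (0.29 ± 0.10, adjusted p = 0.184), with values near the array median, and at 1419848_x_at, whose suffix marks probes that may match other transcripts, the difference was -0.02. Tlr7 and Tlr13 are X-linked, and by Xist and Eif2s3y the controls were 2 female and 2 male samples and the experimental group 3 female and 1 male. With that as a block neither gene passed (adjusted p = 0.615 and 0.198), and Tlr1 did (0.0457).

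Tlr9, the receptor for CpG DNA, was close to the array median, at 5.08, 5.46, 5.29 and 5.37 in controls and 5.05, 5.31, 5.15 and 5.39 in experimental samples. The groups overlapped, with a difference of -0.07 ± 0.12 (SE, 95% interval -0.33 to 0.18, adjusted p = 0.800).

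Myd88, the adaptor that all of these receptors share, was bright and differed little. It read 10.82, 11.08, 10.94 and 11.02 in controls and 10.85, 11.18, 11.13 and 10.96 in experimental samples. The groups overlapped and the difference was 0.06 ± 0.11 (SE, adjusted p = 0.820). Its 95% interval, -0.17 to 0.30, is among the narrowest of the members.

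Set side by side, 1 of 4 surface receptors (Tlr1) and none of 3 endosomal receptors passed, where 3.47% of all genes did. The median difference was -0.21 for the surface receptors and -0.07 for the endosomal ones. The mean difference of the surface receptors was above 0 (0.12), opposite in sign to their median, since Tlr1 rose and the other 3 values were below 0. Averaged over its 4 genes, the surface class read 7.78, 8.26, 8.05 and 8.04 in controls and 8.05, 8.31, 8.11 and 8.15 in experimental samples. The endosomal class read 7.68, 7.68, 7.58 and 7.57 in controls and 7.48, 7.50, 7.66 and 7.68 in experimental samples. Both classes overlapped between the groups. The difference of surface minus endosomal mean changed by 0.17, less than its SD over the controls (0.21),, with 0.35 in replicates 1 and 2 and -0.01 in replicates 3 and 4. Since the classes were set with results known, no test was made.

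The codes in the labels are written in 2 styles, one for replicates 1 and 2 of both groups and one for replicates 3 and 4, so each style holds a set of 2 arrays per group. Within each group, replicates 1 and 2 share the number in their code, while the codes of replicates 3 and 4 differ. What a shared number stands for is not stated, so replicates 1 and 2 of a group may not be independent samples. Of the 10 members, 3 had differences of opposite sign in the 2 sets at their brightest probe set: Tlr6 (0.03 and -0.23), Cd14 (0.40 and -0.23) and Tlr7 (-0.11 and 0.51). In a fit with a term for the change of the difference between the sets, chosen after the data were seen, none of the 10 passed, beside 0.011% of all genes. Tlr7 had the smallest p of the members for this term (0.62 ± 0.24 SE, adjusted p = 0.594, unadjusted 0.0290, which 8.06% of all genes pass at 0.05). The monocyte and macrophage markers differed in the same way as Tlr7 in their median over 13 genes, -0.63 within replicates 1 and 2 and 0.38 within replicates 3 and 4. Of these genes, Csf1r, Cx3cr1, Mpeg1 and Cybb did not show these signs. The pattern was not particular to this list: the medians were -0.54 and 0.45 for resident macrophage markers, -0.40 and 0.23 for trafficking and ligand handling genes, and -0.34 and 0.37 for interferon regulatory factors. The part of any of these lists in the Tlr7 result was not tested. Of the 47 other genes of the pathway, 13 were likewise below 0 in the first set and above 0 in the second, 5 had the reverse, and none passed for the term. The 4 with the smallest p among the 13, named after their values were seen, were Irf5, an interferon regulatory factor gene (-0.83 and 0.46, adjusted p of the term = 0.327), Ly86, whose product binds a Toll-like receptor homologue (-0.73 and 0.54, 0.416), the nuclease gene Pld4 (-0.73 and 0.47, 0.416) and the protease gene Lgmn (-0.94 and 0.33, 0.466).

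**Figure D3:**
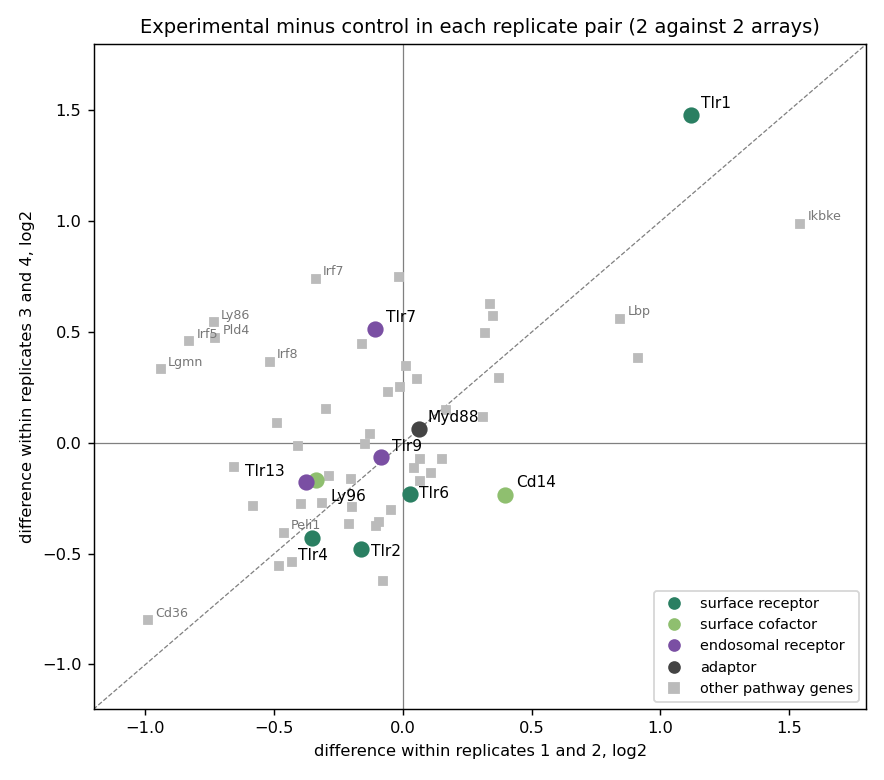
Experimental minus control difference on the log2 scale within replicates 1 and 2 (horizontal axis) and within replicates 3 and 4 (vertical axis), each of 2 against 2 arrays, for the 10 genes (circles, by class) and 47 other genes of the pathway (squares). The dashed line marks equal differences. Tlr1 (1.12 and 1.48) and Ikbke (1.54 and 0.99) lie at the upper right, while Tlr7, Ly86, Irf5, Pld4 and Lgmn lie at the upper left.

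The other genes of the pathway were taken from 5 lists, in which 47 of 53 genes were measured. Of these, 2 were called higher and 1 lower, together beside 3.47% of all genes, with a median difference of -0.08. With replicate number as a block 3 were higher and 4 lower, where 6.18% of all genes were called. With code style as a block 5 were higher and 3 lower, beside 7.05%. Those added by the replicate block were Tlr3 (adjusted p = 0.0476), higher, and Cd36 (0.0172), Slc15a3 (0.0493) and Irak3 (0.0244), lower. Other probe sets did not pass with this block for Tlr3 (1422781_at, 0.837) and Cd36 (1423166_at, 0.215, and 1450884_at, 0.347).

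Lbp, the secreted protein that carries lipopolysaccharide to Cd14, was 1 of 17 genes of trafficking and ligand handling and the only one called. At 1448550_at it read 10.15, 10.17, 10.44 and 10.40 in controls and 10.79, 11.22, 10.91 and 11.04 in experimental samples. Every experimental array was above every control. The difference was 0.70 ± 0.12 (SE, 1.63-fold, adjusted p = 0.0189), and its second probe set 1447520_at gave 0.66 ± 0.14 (adjusted p = 0.0386). Without control replicate 1 (0.0631), control replicate 2 (0.0657) or experimental replicate 4 (0.0532) the call at 1448550_at was lost (0.0105 to 0.111 over the alternatives). It was also lost within replicates 1 and 2 alone and within replicates 3 and 4 alone.

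Ikbke, an IKK-related kinase that acts on interferon regulatory factors, was the only one called of 13 kinases and ubiquitin ligases. It read 7.71, 7.76, 8.40 and 8.44 in controls and 9.17, 9.39, 9.06 and 9.76 in experimental samples, with no overlap. The difference was 1.27 ± 0.21 (SE, 2.41-fold, adjusted p = 0.0169). The call was lost without control replicate 1 (0.0509) or 2 (0.0585), and within replicates 3 and 4 alone. Over the alternatives the adjusted p ran from 0.00425 to 0.101. Its relative Tbk1 had a difference of -0.05 and Traf6, the ubiquitin ligase below Myd88, one of 0.16, neither of which passed.

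Peli1, a ubiquitin ligase of the Pellino family, was the only one called of 8 adaptors and inhibitors. At 1417371_at it read 9.57, 9.56, 9.31 and 9.42 in controls and 9.08, 9.12, 8.99 and 8.92 in experimental samples. The groups did not overlap, with a difference of -0.43 ± 0.10 (SE, adjusted p = 0.0485). Among the 8 fits that left out 1 array it passed in 1, without experimental replicate 2 (adjusted p = 0.0465; 0.0166 to 0.200 over the alternatives), and its 4 other probe sets were below 0 without passing.

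Of the 4 other Toll-like receptors measured none passed. Tlr8, an X-linked relative of Tlr7, had a difference of -0.43 ± 0.17 (SE, adjusted p = 0.215) and Tlr5, the flagellin receptor, one of 0.04 ± 0.21 (adjusted p = 0.952). Tlr3, whose ligand the mice had received, was below the array median on all 8 arrays. Its groups did not overlap at 1422782_s_at, with a difference of 0.65 ± 0.17 (adjusted p = 0.0776). At its other probe set, 1422781_at, they overlapped, with a difference of 0.05 ± 0.11 (adjusted p = 0.877). Of 5 interferon regulatory factors none passed, with Irf1 at -0.18 ± 0.10 and Irf8, a factor of monocytes and dendritic cells, at -0.08 ± 0.52.

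**Figure D4:**
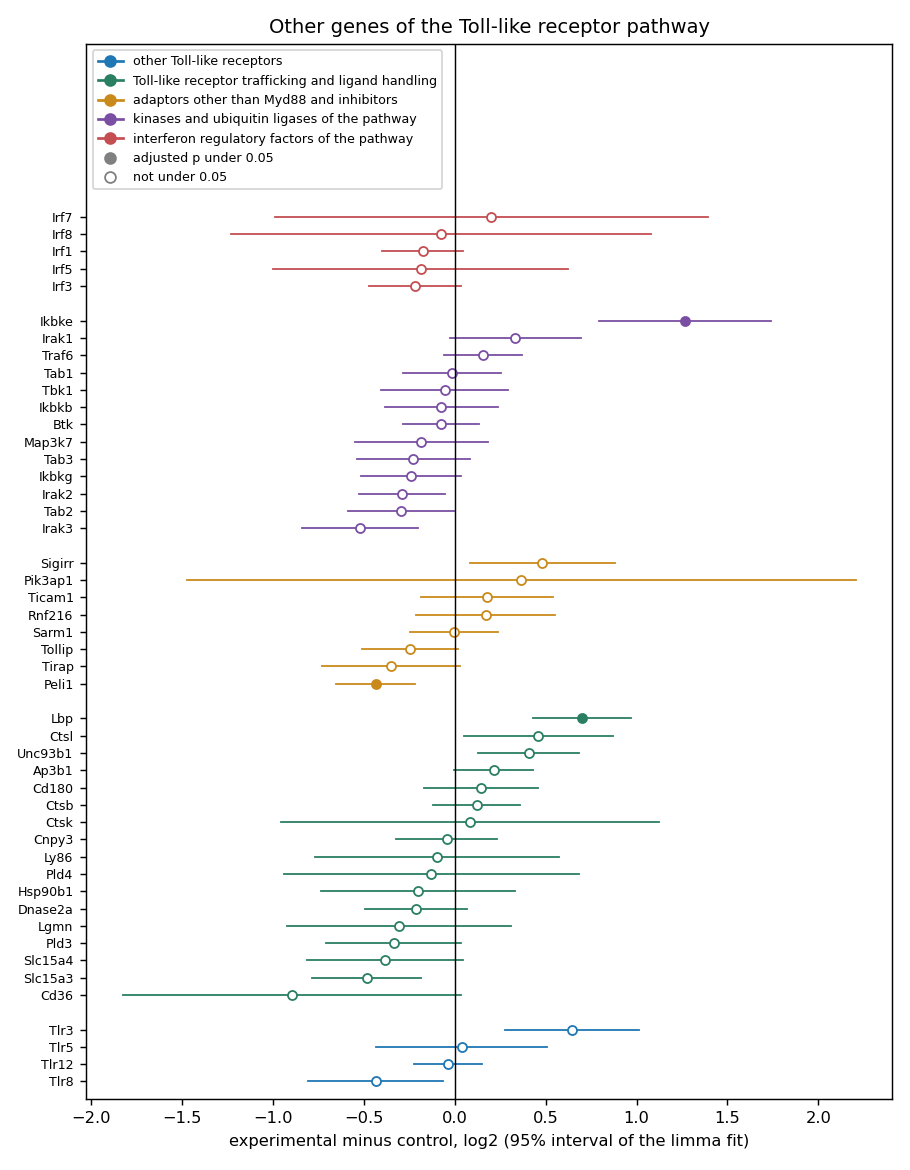
Experimental minus control difference on the log2 scale (horizontal axis) of 47 other genes of the Toll-like receptor pathway by their brightest probe set, with the 95% interval of the limma fit, grouped by list. Filled points passed the threshold: Ikbke (1.27), Lbp (0.70) and Peli1 (-0.43).

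Markers of other cell types were read beside these values, since Tlr7 and Tlr9 are known from plasmacytoid dendritic cells and B cells and Tlr1 from B cells and monocytes as well as neutrophils. Of 11 B cell markers 8 were called lower and none higher, where 1.95% of all genes were called lower. All 11 differences were below 0. The 8 were the CD20 gene Ms4a1 (-2.82, adjusted p = 0.0116), Cd79a (-1.57, adjusted p = 0.00258), Cd79b, Vpreb3, Blk, Fcrla, Cd72 and Blnk. The summed linear signal of that list was 1671 to 3008 in controls and 604 to 936 in experimental samples. Of 11 plasmacytoid dendritic cell markers 4 were called lower and 10 differences were below 0, with sums of 2346 to 2697 and 903 to 2503. The 4 were Spib (-2.48), Ly6d (-2.25), Siglech (-1.29, adjusted p = 0.0142) and Ccr9 (-1.24). Of 9 conventional dendritic cell markers 2 were called lower, Cd209a (-2.37) and Ccr7 (-0.93), with sums of 1053 to 1429 and 559 to 829. In that list 7 differences were below 0. None of these 31 genes was called higher.

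None of 13 monocyte and macrophage markers passed, with sums of 25933 to 28066 in controls and 19589 to 30734 in experimental samples. Of 13 neutrophil markers Csf3r, the G-CSF receptor gene, was called lower (-0.65, adjusted p = 0.00943), with sums of 164126 to 174845 and 156731 to 168131. The 13 resident macrophage, 8 T or NK cell and 7 erythroid markers held no call, and their sums overlapped between the groups. With replicate number as a block, 2 of them were called higher and none lower, where 6.18% of all genes were called in either direction. These 2, named after their values were seen, were the T or NK cell gene Il2rb (1.02, adjusted p = 0.0276, against 0.187 without the block) and the erythroid gene Alas2 (1.10, adjusted p = 0.0342, against 0.216). Cd3g, a T cell receptor complex gene, did not overlap between the groups (1.33) and passed in neither fit. The lists were mixed in direction. In the T or NK cell list 5 differences were above 0 and 3 below, with a median of 0.19, and its brightest gene Cd3d was below (-0.54). In the erythroid list 5 were above 0 and 2 below, with a median of 0.11. In the 9 lists, 2 markers were below the median of all 8 arrays, Xcr1 of conventional dendritic cells and Hba-a1 of erythroid cells. The part of these markers in the values of the members was not tested.

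**Figure D5:**
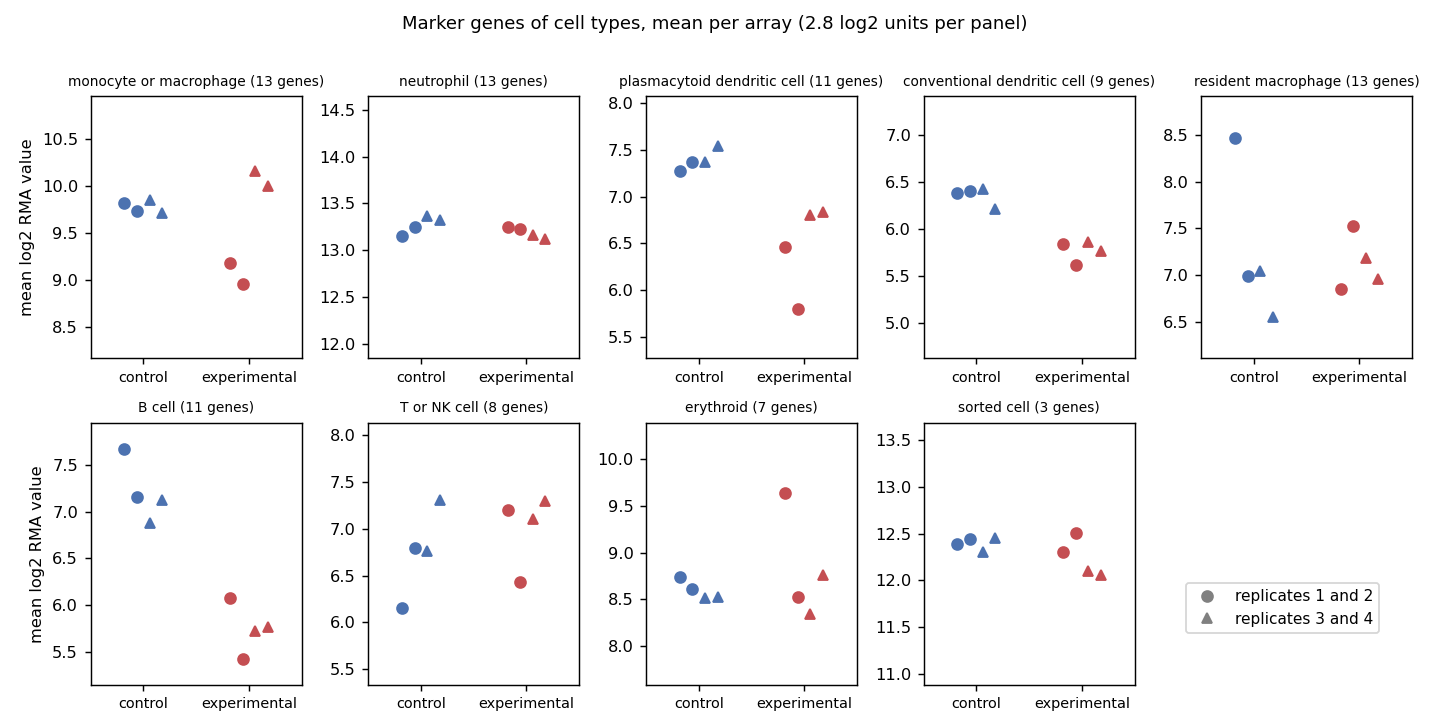
Mean log2 RMA value (vertical axis) over the marker genes of 9 lists in each array, with circles for replicates 1 and 2 and triangles for replicates 3 and 4. Each panel spans 2.8 log2 units. The B cell, plasmacytoid and conventional dendritic cell lists are lower in every experimental array, and the monocyte or macrophage list is low in experimental replicates 1 and 2 and high in 3 and 4.

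For each member the 3 genes with the closest pattern over the 8 arrays were named, from 8720 genes with a mean of at least 6 (8721 for Tlr9). The Pearson correlations, given as a description, ran from 0.880 to 0.993, and the 8 arrays share the difference between groups and the 2 code styles. Tlr1 was followed most closely by Fkbp1b (r = 0.989), an FK506-binding protein gene that rose by 1.26 (adjusted p = 0.0116), then by Tex264 (0.988) and Sh3bp1 (0.986). Tlr13 was followed by Treml4 (0.978), a receptor gene of the TREM family that fell by 1.08 (adjusted p = 0.0269), Ace (0.978), the angiotensin-converting enzyme gene that fell by 1.24 (adjusted p = 0.0219), and Ddit3 (0.962).

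The genes closest to Tlr2 were Rab5b, Abtb2 and Rhoc (0.977 to 0.983), and those closest to Tlr4 were Kat5, Pcsk7 and Tmem167b (0.979 to 0.986). For Tlr6 they were Khsrp, Dynlt1f and Ndufb9 (0.900 to 0.904), for Cd14 Tspo2, Garem1 and Ndufb9 (0.899 to 0.938), and for Ly96 Sh2d3c, Csnk1e and Wdr45 (0.920 to 0.968). For Tlr7 they were Mrps35, Ecpas and Ddit4 (0.953 to 0.958), for Tlr9 Pacs1, Wdr45 and Ier3ip1 (0.952 to 0.993), and for Myd88 Trim21, Nampt and Nsun3 (0.880 to 0.946). No member was among the 3 closest genes of another. Over the 45 pairs of members, the correlations of Tlr2 with Tlr4 (0.83) and of Ly96 with Tlr9 (0.86) were the highest, and those of Tlr2 with Tlr7 (-0.87) and of Tlr1 with Tlr13 (-0.84) the lowest.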

How the data were processed

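Biotin-labelled cRNA made from 2.5 µg of total RNA of each of the 8 samples was hybridised to an Affymetrix mouse array, per the labels' protocols. The deposited log2 values are RMA values per probe set made by the authors, per the submitters' processing notes, which give no version. It is not stated whether 1 RMA run covered all 8 arrays. Of 45101 rows, 64 Affymetrix controls were left out. In the platform annotation 34945 probe sets had 1 gene symbol, 932 several and 9160 none, and 34741 matched a RefSeq gene of GRCm38.p6. Probe sets with several symbols or none were not named. Where 1 value per gene was needed, the brightest probe set (highest 8-array mean) stood for the gene.

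Experimental was compared with control by lmFit and eBayes of limma 3.58.1, run in R 4.3.3, with group as the sole term. Errors of differences are moderated standard errors, and the number of arrays limits the precision. The alternatives were a quantile normalization, a centring on medians, leaving out dim probe sets (mean of at least 6, or above the median), trended and robust variance, replicate number, code style or inferred sex as a block, other ways to represent a gene, each array left out, and each code style alone. Same-numbered arrays of the 2 groups deviated together from their group means (r = 0.20 to 0.26 across probe sets in all 4 pairs), and the numbers come from the sample titles. Between different numbers the values within a code style were 0.14 to 0.26, and those across styles -0.27 to -0.13.

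The members, gene lists and classes were chosen with earlier results of these data known. Named genes were all members, pathway genes past the threshold (otherwise the 2 brightest of a list), marker genes past the threshold, some of the brightest markers, and the 3 genes closest to each member. Tbk1, Traf6, Tlr3, Il2rb, Alas2, Cd3g, Cd3d, Irf5, Ly86, Pld4 and Lgmn and the genes added by the block were named after their values were seen.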

Additional observations from a re-analysis of the deposited data

Results flagged for a closer look

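Of 44 groups of 4 arrays examined for an array far from the others (the 15 probe sets of the members and 7 named genes of the pathway, in each group), 1 held such an array. Irf1, an interferon regulatory factor gene, read 10.20 in experimental replicate 2 and at most 9.96 in the other 3 experimental arrays, a gap of 0.917 of the range of the group, above Dixon's 95% critical value for 4 values. Chance gives about 1 in 20 such groups.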

How the results depend on the processing

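Of 318 values of single probe sets under the alternatives, 274 kept their direction and side of the threshold, 25 lost the threshold, 2 gained it and 17 changed sign; the cause was not tested. The fit with replicate number as a block raised the number of probe sets called from 1162 to 2277 and left the members at 1 higher (Tlr1) and none lower, with 3 pathway genes higher and 4 lower. Code style as a block gave 2582 probe sets and 5 pathway genes higher and 3 lower, and inferred sex as a block 663 probe sets. Replicates 1 and 2 alone gave 130 probe sets, 0 members and 1 pathway gene higher. Replicates 3 and 4 alone gave 418 probe sets, 1 member higher (Tlr1, adjusted p = 0.0451) and 0 pathway genes higher. Leaving out 1 array gave 395 to 1744 probe sets, 0 to 1 members higher, 0 to 1 lower (Tlr4, without experimental replicate 2), 0 to 2 pathway genes higher and 0 to 2 lower. Averaging the probe sets of each gene gave 4 pathway genes higher. Peli1, the 1 pathway gene called lower, was lost and 0 remained under median centring, quantile normalization, trended and robust variance, the sex block, either replicate set alone, and the mean or most variable probe set of a gene. The values that changed sign had not passed the threshold. Tlr4 at 1430695_at was -0.014 under quantile normalization, -0.092 in replicates 3 and 4, and -0.051 to 0.083 with 1 array left out. Tlr6 was 0.029 in replicates 1 and 2 and -0.24 to 0.10 with 1 array left out, and Cd14 was -0.23 in replicates 3 and 4 and -0.41 to 0.55. Tlr7 at 1419848_x_at was 0.19 in replicates 3 and 4 and -0.080 to 0.036, and at 1422010_at -0.11 in replicates 1 and 2. A filter on a mean of at least 6 removed Tlr9, which lies near the array medians. With 4 arrays a group, the widest interval among the members was that of Cd14.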
